A study of Mus musculus with 52 samples.

Results

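Expression in the testes of Tug1 rescue mice was compared with expression in wild-type testes, gene by gene, to describe what still differed from wild type when Tug1 RNA was supplied by a transgene. The comparison covers 7 of the 52 samples of the series, 4 wild-type and 3 rescue testes, all from males. Its members were all genes whose group mean reached 1 TPM (a length-corrected measure of each gene's portion of the RNA, scaled to the same total in every library) in either group, which held for 22393 of 34865 genes. Rescue mice carried the homozygous Tug1 deletion, in which lacZ replaced the gene body and the promoter and first exon remained. They also carried tg(Tug1), a doxycycline-inducible Tug1 transgene lacking the 5' region of the RNA and inserted at random in 2 founders, together with CAGs-rtTA3, a ubiquitously expressed activator. Doxycycline was given in the food from the plug date, so the groups differ in the deletion, both transgenes and the drug, and these cannot be told apart here. The strain labels read C57BL/6J/129S6 in both groups, with no Neo in wild type and Neo and LacZ in rescue, although by the study's methods the knockout colony was bred from mice without the neomycin gene. The ages of these mice are not given in the sources used here. The means of the 4 Tug1 knockout testes, from mice with the same deletion and neither transgene, are given beside the values. They are not compared as a second result, because both contrasts would share the wild-type samples.

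The authors deposited 1 mean per group and no values of single samples are used here. No value below therefore has an error or a p, no group can be said to overlap another, and the depth of each sample is unknown. A difference is given as the log2 ratio of the rescue over the wild-type mean, with 0.5 TPM added to both, and a gene was called higher or lower at a ratio of 2-fold. A call describes 2 means and is no test. Leaving out a library was not possible.

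Tug1 is a long noncoding RNA conserved between mouse and human and expressed in many tissues, the testis among them. The seminiferous tubules of the testis hold germ cells, from spermatogonia through spermatocytes to spermatids, supported by Sertoli cells. Leydig cells between the tubules make testosterone. Sperm pass on into the epididymis, a separate duct whose epithelium secretes defensins, lipocalins and protease inhibitors onto them.

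Most genes lay close to wild type. The median log2 ratio was 0.04 and 59.9% of genes lay above 0, and 21014 genes, or 93.8%, lay within 1.5-fold. Falls outnumbered rises: 517 genes were called lower and 110 higher, which is 2.31% and 0.491% of the genes compared. At 1.5-fold the counts were 939 lower and 440 higher, or 4.19% and 1.96%. Among protein-coding genes alone, with each group rescaled to the same sum, 405 were lower and 30 higher, a steeper split. The 2 sets differed in abundance. The genes called lower summed to 16401 TPM in wild type and 1347 TPM in rescue, and those called higher to 330 TPM and 941 TPM. In the knockout mean the same sets summed to 5333 and 841 TPM. Of the genes called lower, 359 were below 1 TPM in rescue and 36 were at 100 TPM or more in wild type. Of those called higher, 70 were below 1 TPM in wild type and 22 reached 10 TPM in rescue. The 1 TPM minimum admitted 588 genes through rescue alone and 970 through wild type alone, which leaned those genes toward a difference. Around the minimum, Gm46369 (1 TPM in wild type, 0.488 in rescue), Gm43062 (0.871 and 1 TPM) and Gm14399 (0.905 and 1.001 TPM) were just inside. Just outside were Ftl1-ps1 (0.9997 and 0.858 TPM), Tspyl3 (0.970 and 0.9997 TPM) and Gm37803 (0.774 and 0.9998 TPM).

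**Figure D1:**
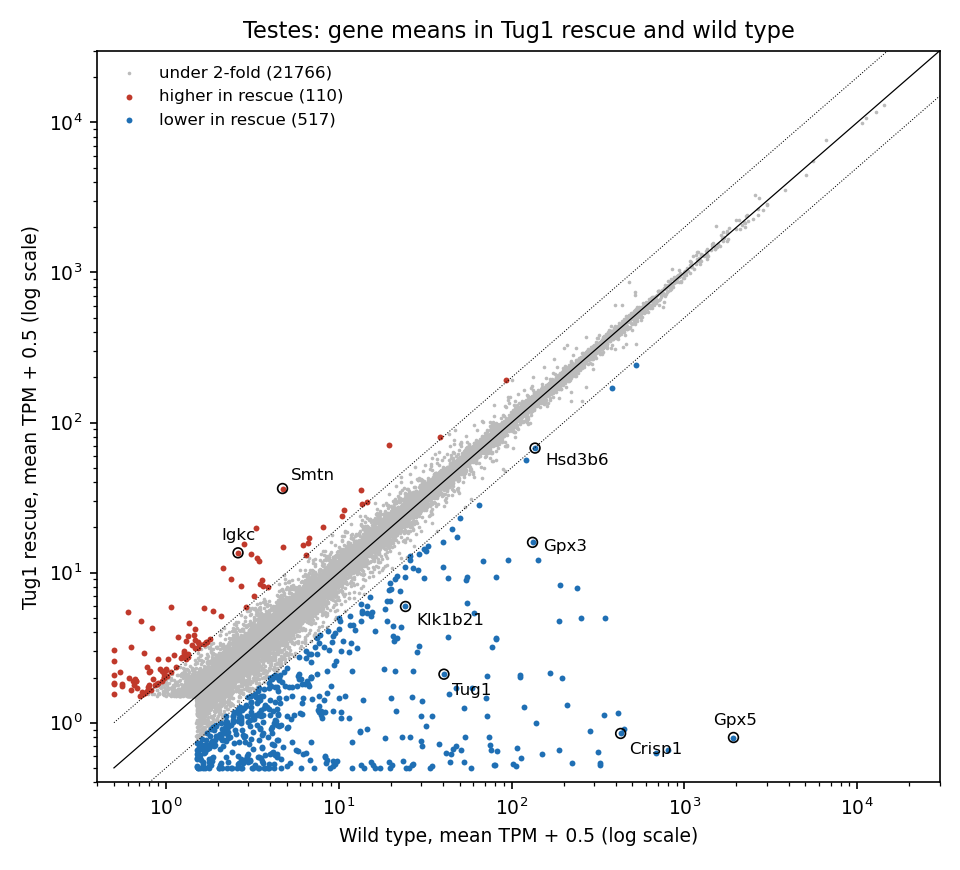
Each point is 1 of the 22393 genes, with the wild-type mean on the x axis and the rescue mean on the y axis, both as TPM + 0.5 on log scales and without error bars because single-sample values are not used. Red points are the 110 genes called higher and blue points the 517 called lower at the dotted 2-fold lines, and the blue points reach much higher wild-type levels than the red points reach in rescue.

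The transgene left the Tug1 mean far below wild type. Tug1 (chr11:3639785-3649673, minus strand, GRCm38) had a mean of 40.1 TPM in wild type, 0.885 TPM in knockout and 1.60 TPM in rescue. The rescue mean was 4.003% of wild type and the knockout mean 2.21%, a log2 ratio of −4.27 for rescue. The gene model counts reads from the retained first exon as well as from the transgene, which carries a shortened RNA, so this value is not a measure of transgene RNA alone. Morc2a, a chromatin ATPase gene that starts on the opposite strand and overlaps the Tug1 model by 180 bases, had means of 52.9 and 46.2 TPM in wild type and rescue. The sources do not say if strand was used in counting.

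Some genes beside the deletion were higher than in wild type. Within 1 Mb of the Tug1 start, 48 other genes reached 1 TPM, of which 3 were called higher and 0 lower, against the 0.491% and 2.31% above. At 1.5-fold, 10 were higher and 1 lower, against 1.96% and 4.19%. Of these, Gm11946 and Gm24013 among the 3, and Gm11951 among the 10, reached 1 TPM through rescue alone and so had to lie above wild type. Of the 10, 8 started at lower coordinates than Tug1, the side on which its gene body lies. Smtn, encoding the contractile-cell protein smoothelin, had means of 4.22 TPM in wild type, 38.1 TPM in knockout and 35.8 TPM in rescue, a log2 ratio of 2.94 for rescue. Gm11946, a noncoding gene that lies wholly within Smtn, was 0.107, 4.68 and 4.99 TPM in the same order. Without strand, reads of these overlapping genes may be shared between them.

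Other genes of the window differed by less than these. Rnf185, an E3 ubiquitin ligase gene 197 kb away, was 46.3 TPM in wild type, 82.7 in knockout and 88.4 in rescue (log2 0.93). Its neighbour 8430429K09Rik, whose start lies 2 bases from that of Rnf185, was 15.7, 26.6 and 28.5 TPM (0.84). Selenom, a selenoprotein of the endoplasmic reticulum, was 6.24, 13.3 and 12.1 TPM (0.90). Pla2g3, a secreted phospholipase, was 2.31, 4.10 and 4.01 TPM (0.68). The rest of the 10 were short or noncoding models of low abundance, Gm24439, Gm11951, Gm26393 and Gm24013, between 1.29 and 3.09 TPM in rescue. Of these, Gm24013, a snoRNA model, was the third gene past 2-fold, at 0.801 TPM in wild type and 2.98 TPM in rescue. Gatsl3 was the 1 gene lower by 1.5-fold, at 9.46 and 6.07 TPM. Osbp2, an oxysterol-binding protein gene and the most abundant gene of the window, was 376 TPM in wild type, 299.6 in knockout and 312 in rescue (−0.27). For Smtn, Gm11946, Rnf185, 8430429K09Rik, Selenom and Pla2g3 both mutant means lay above wild type.

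**Figure D2:**
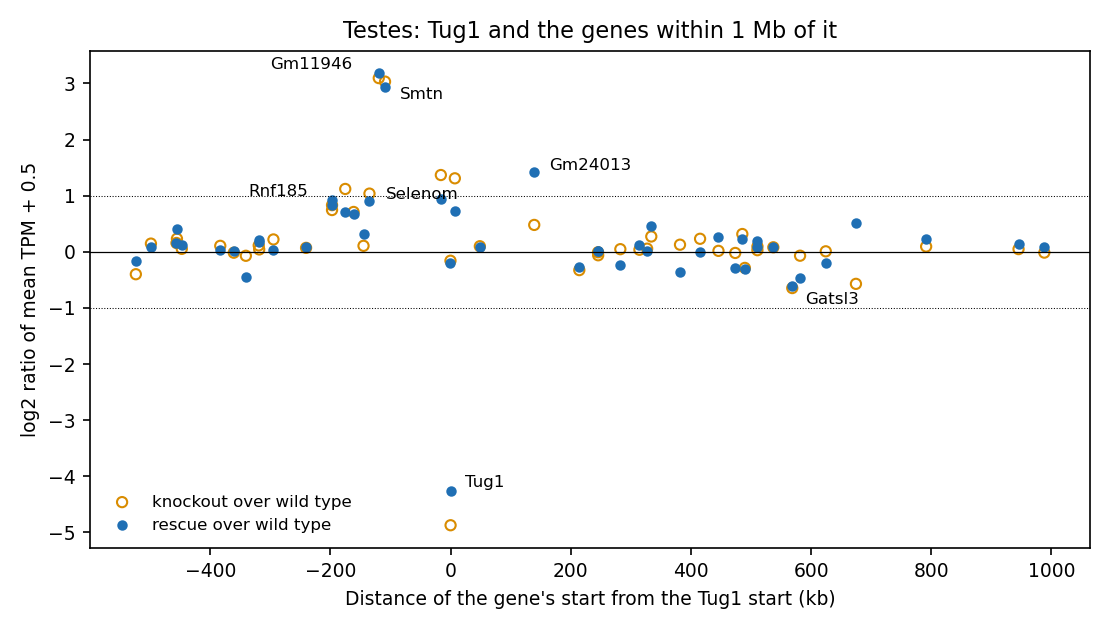
The log2 ratio to wild type of mean TPM + 0.5 is plotted against the distance in kb of each gene's start from the Tug1 start, for Tug1 and 48 genes, with filled points for rescue and open points for knockout. Smtn and Gm11946 stand near 3 in both, Tug1 stands below −4 in both, and most other genes lie near 0.

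The falls were led by genes of the epididymis. All of the 15 genes with the lowest log2 ratios had a wild-type mean above 100 TPM and a rescue mean below 1 TPM. Gpx5, an epididymal secreted glutathione peroxidase, had a wild-type mean of 1921 TPM and a rescue mean of 0.297 TPM, the lowest ratio of all genes at −11.24. The lipocalins Lcn8, Lcn5 and Lcn9 were 798.6, 680.0 and 443.6 TPM in wild type and 0.161, 0.132 and 0.410 TPM in rescue. Adam7, a membrane protein passed from the epididymis to sperm, was 325.9 and 0.0193 TPM. Crisp1, which binds to maturing sperm, was 426.7 and 0.348 TPM. The others were Spag11b, the beta-defensins Defb25, Defb20, Defb48 and Defb18, Rnase9, the cystatin Cst11, Epp13 and 9230110F15Rik, with log2 ratios from −9.24 to −7.67.

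Of a list of 20 genes of the epididymis and vas, 19 reached 1 TPM, 17 were called lower, 0 were above wild type, and the median log2 ratio was −7.27, beside 2.31% called lower and a median of 0.04 over all genes. Of the 19, 16 reached 1 TPM through wild type alone and so had to lie below it. The list summed to 6568 TPM in wild type, 1685 TPM in knockout and 738.7 TPM in rescue. In rescue 16 of the 19 were at or under 1 TPM, with Bsph2 listed at 0, and in knockout 10 of 19. The exceptions were Cst8 (747.1 TPM in wild type and 589.6 in rescue) and Wfdc10 (255.4 and 137.8), both abundant in all 3 groups, and Rnase10 (189.8 and 7.79). Groups by name prefix, chosen after the values were seen, gave these counts called lower, against 2.31% of all genes: 28 of 34 Defb genes, 6 of 8 Lcn, 6 of 8 Spink, 8 of 14 Wfdc, 5 of 6 Rnase, 3 of 5 Spint, 3 of 3 Pate and 3 of 3 Teddm genes at 1 TPM, but 2 of 31 Adam genes and 1 of 6 cystatins. Of the 62 called lower outside the Adam genes and cystatins, 43 reached 1 TPM through wild type alone and so had to lie below it, among them 18 of the 28 Defb genes and all 6 Lcn and 3 Pate genes. Other relatives, named after their values were seen, were near or above wild type. Spink2 was 925.1 and 933.0 TPM, Defb19 520.3 and 745.1 TPM (log2 0.52), Defb36 100.1 and 192.7 TPM (0.94), and Spink4 4.39 and 8.52 TPM (0.88).

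Some epididymal genes were low in both mutant means, and others were low in rescue but at 100 TPM or more in knockout. Gpx5, Lcn8, Lcn5, Spint4 and Adam28 were below 1 TPM in knockout as well. Crisp1 had a knockout mean of 760 TPM, Defb28 of 200.4 TPM (117.5 in wild type, 0.765 in rescue), and Spink8 of 205.1 TPM (344.2 and 4.49). The knockout mean of Spink8 was thus below its wild-type mean. Wfdc15b was 43.9 TPM in wild type, 128.9 in knockout and 0.116 in rescue. Cd52, a surface glycoprotein of lymphocytes and of the epididymal duct, was 80.4, 281.7 and 3.12 TPM. Gpx3, the extracellular glutathione peroxidase, was 131.6, 221.8 and 15.4 TPM. Defb28, Spink8, Wfdc15b, Cd52 and Gpx3 were named after their values were seen. Among the 36 genes called lower with 100 TPM or more in wild type, 14 were below 1 TPM in knockout and 8 were at 100 TPM or more there. A mean cannot show whether 1 wild-type library or all 4 carried these transcripts, and the part of epididymal RNA in the other differences below was not tested. In bulk tissue, the share of a tissue or cell type in a sample and the RNA made per cell cannot be told apart. The amount of epididymis in each sample is not given in the sources used here and was not tested.

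**Figure D3:**
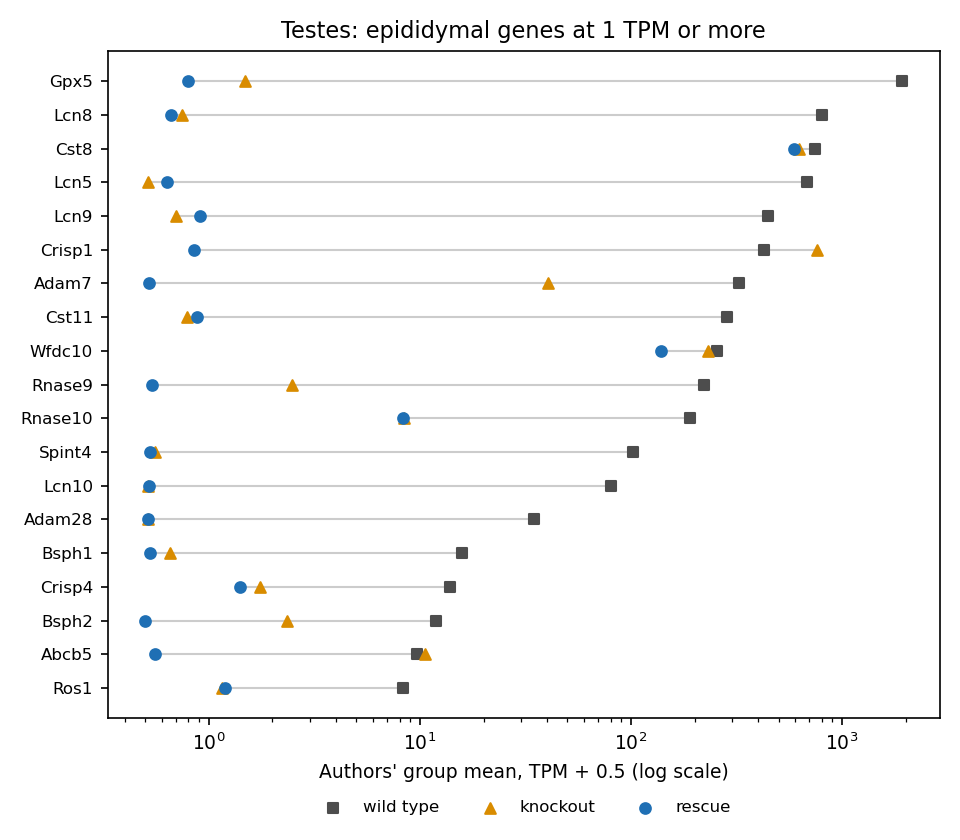
The group means of the 19 epididymal genes at 1 TPM or more are plotted on a log scale as TPM + 0.5, ordered by the wild-type mean, with squares for wild type, triangles for knockout and circles for rescue and no error bars. Circles of 16 genes stand at or under 1 TPM, those of Cst8, Wfdc10 and Rnase10 stand higher, and the triangles of Crisp1 and Abcb5 lie to the right of their squares.

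Requiring 5 TPM in rescue, a minimum set after the values were seen that removes the deepest falls, left 46 genes called lower. Cuzd1, Rnase10, Slc38a5, Teddm2, Ap1s2, Gpx3 and Defb30 led these, with log2 ratios from −4.92 to −2.98. They also held the kallikreins Klk1b21 and Klk1b24, described next.

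Some genes of the Klk1b cluster were lower in rescue. These tissue kallikrein proteases are encoded side by side on chromosome 7 and made in Leydig cells and salivary gland under androgen control. Of 14 listed members 12 reached 1 TPM, 12 of 12 were below wild type (59.9% of all genes lay above it), 4 were called lower and 5 were lower by 1.5-fold, against 2.31% and 4.19% of all genes. The median log2 ratio was −0.44. Klk1b21 was 23.8 TPM in wild type, 56.4 in knockout and 5.45 in rescue, or 22.9% of wild type (log2 −2.03). Klk1b22 was 3.79, 11.3 and 0.547 TPM (−2.03), Klk1b27 was 12.2, 31.0 and 2.65 TPM (−2.01), and Klk1b24 was 19.2, 34.3 and 5.95 TPM (−1.61). For all 4 the knockout mean lay above wild type and the rescue mean below it. The most abundant member, Klk1b8, was near wild type in both, at 154.6, 147.6 and 143.9 TPM. Klk1b9 (38.5, 36.2 and 33.4 TPM) and Klk1b26 (18.4, 18.2 and 16.7 TPM) were likewise close. Klk1b16, at 3.85 TPM in wild type and 1.96 in rescue, was the fifth past 1.5-fold. The genes are near copies, and uniquely mapped reads may be divided unevenly among them. Klk1b22 reached 1 TPM through wild type alone and so had to lie below it. The list leaves out the pseudogenes of the cluster, of which 3 reached 1 TPM and none passed 1.5-fold: Klk1b7-ps (33.8 TPM in wild type and 34.6 in rescue), Klk1b12-ps (0.805 and 1.04) and Klk1b23-ps (2.83 and 2.12).

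The promoters of the 4 members called lower are shown beside that of Klk1b8, the abundant member near wild type, so that genes that were low together can be set against one that was not. Each line gives the 250 bases before the RefSeq start, on the plus strand of GRCm38.p6. Capitals mark the longest run of bases, 20 in all, that the windows of all 4 share.

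Klk1b21, chr7:44102042-44102291: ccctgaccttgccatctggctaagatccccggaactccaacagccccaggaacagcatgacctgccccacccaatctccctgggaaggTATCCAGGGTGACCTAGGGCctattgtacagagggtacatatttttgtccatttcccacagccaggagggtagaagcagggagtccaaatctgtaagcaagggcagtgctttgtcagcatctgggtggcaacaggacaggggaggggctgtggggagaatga
Klk1b22, chr7:44112423-44112672: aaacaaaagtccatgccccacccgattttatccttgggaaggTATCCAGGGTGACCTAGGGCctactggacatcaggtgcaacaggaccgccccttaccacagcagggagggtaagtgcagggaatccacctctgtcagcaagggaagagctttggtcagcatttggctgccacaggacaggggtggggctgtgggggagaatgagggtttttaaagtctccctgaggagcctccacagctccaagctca
Klk1b24, chr7:44187986-44188235: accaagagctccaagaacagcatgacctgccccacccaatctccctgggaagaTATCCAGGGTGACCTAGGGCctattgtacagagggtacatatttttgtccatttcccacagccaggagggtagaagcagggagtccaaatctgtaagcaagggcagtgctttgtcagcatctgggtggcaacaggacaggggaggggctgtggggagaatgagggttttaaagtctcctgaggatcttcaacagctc
Klk1b27, chr7:44052040-44052289: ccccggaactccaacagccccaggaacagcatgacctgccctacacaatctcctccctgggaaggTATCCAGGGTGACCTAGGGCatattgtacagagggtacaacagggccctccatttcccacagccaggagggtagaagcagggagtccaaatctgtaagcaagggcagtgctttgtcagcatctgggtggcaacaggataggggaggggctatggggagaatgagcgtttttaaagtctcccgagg
Klk1b8, chr7:43950416-43950665: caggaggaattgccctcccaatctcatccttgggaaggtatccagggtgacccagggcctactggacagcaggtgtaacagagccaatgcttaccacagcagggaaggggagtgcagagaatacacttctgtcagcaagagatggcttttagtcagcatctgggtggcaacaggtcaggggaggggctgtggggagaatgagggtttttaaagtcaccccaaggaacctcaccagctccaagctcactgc

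The run was defined by those 4 genes, picked by their values, so its presence in them is given in advance and is no evidence about the difference. On both strands of 32851 promoter windows of the same length an exact match was found in 4, or 0.0122%. Of the windows of 8 other Klk1 and Klk1b genes at 1 TPM, 5 came within 1 mismatch of it and the other 3 within 2. Identity over the overlapping part of 2 windows was 76.2% to 97.7% among the 4, and 75.7% to 87.2% between one of them and another member. Klk1b21 and Klk1b24 were the closest pair, at 97.7%. The half-site of the androgen receptor, AGAACA or TGTTCT, was in 1 of the 4 windows, in 1 of the 8 others and in 16.1% of all windows. RefSeq starts are not aligned across the family, so a window can hold or miss a given stretch by its offset alone.

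Core steroidogenesis genes of the Leydig cell did not share this fall. Of 15, all at 1 TPM, 14 were above wild type, against 59.9% of all genes, 1 was called lower and 2 were higher by 1.5-fold, against 2.31% and 1.96% of all genes, with a median of 0.20 for rescue and 0.36 for knockout. Hsd3b6, a 3-beta-hydroxysteroid dehydrogenase of adult Leydig cells, was the 1 lower, at 136.1 TPM in wild type, 147.5 in knockout and 67.1 in rescue, or 49.3% of wild type. Its relative Hsd3b1 was 106.6, 112.4 and 131.3 TPM. Cyp11a1, which makes the first cut in cholesterol, was 43.2, 75.5 and 83.0 TPM (0.93), and the luteinizing hormone receptor Lhcgr was 6.33, 9.46 and 9.93 TPM (0.61). Insl3, the peptide hormone of Leydig cells, was 56.9 TPM in wild type, 143.8 in knockout and 65.5 in rescue. Star, the cholesterol carrier of mitochondria, was 41.5, 68.7 and 44.5 TPM. These 2 were therefore close to wild type in rescue while Cyp11a1 was not.

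Several enzymes and a lipid receptor were picked because their values resembled those of Hsd3b6, and they form no fixed list. In the lists nearest to them, 1 of 16 glutathione transferases, which was Gsta3, and 0 of 19 cholesterol synthesis genes were called lower, against 2.31% of all genes. Gsta3, a glutathione transferase with steroid isomerase activity, was 18.9 TPM in wild type, 18.8 in knockout and 7.15 in rescue (−1.35). Ptgds, a prostaglandin D synthase, was 380.8, 466.7 and 169.4 TPM (−1.17). The carboxylesterase Ces1d was 32.3, 37.9 and 14.6 TPM (−1.12), and the desaturase Scd1 was 21.1, 20.2 and 8.97 TPM (−1.19). The fatty acid receptor Cd36 was 24.3, 27.8 and 12.2 TPM (−0.97, not past 2-fold), the methyltransferase Bhmt 28.7, 38.1 and 12.8 TPM (−1.13), and the aldehyde dehydrogenase Aldh3a1 5.63, 6.11 and 1.32 TPM (−1.76). In each the knockout mean lay near or above wild type and the rescue mean lay below both. Ptgds and Cd36 are also made in epididymis or fat, and the epididymal part of these values was not tested.

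**Figure D4:**
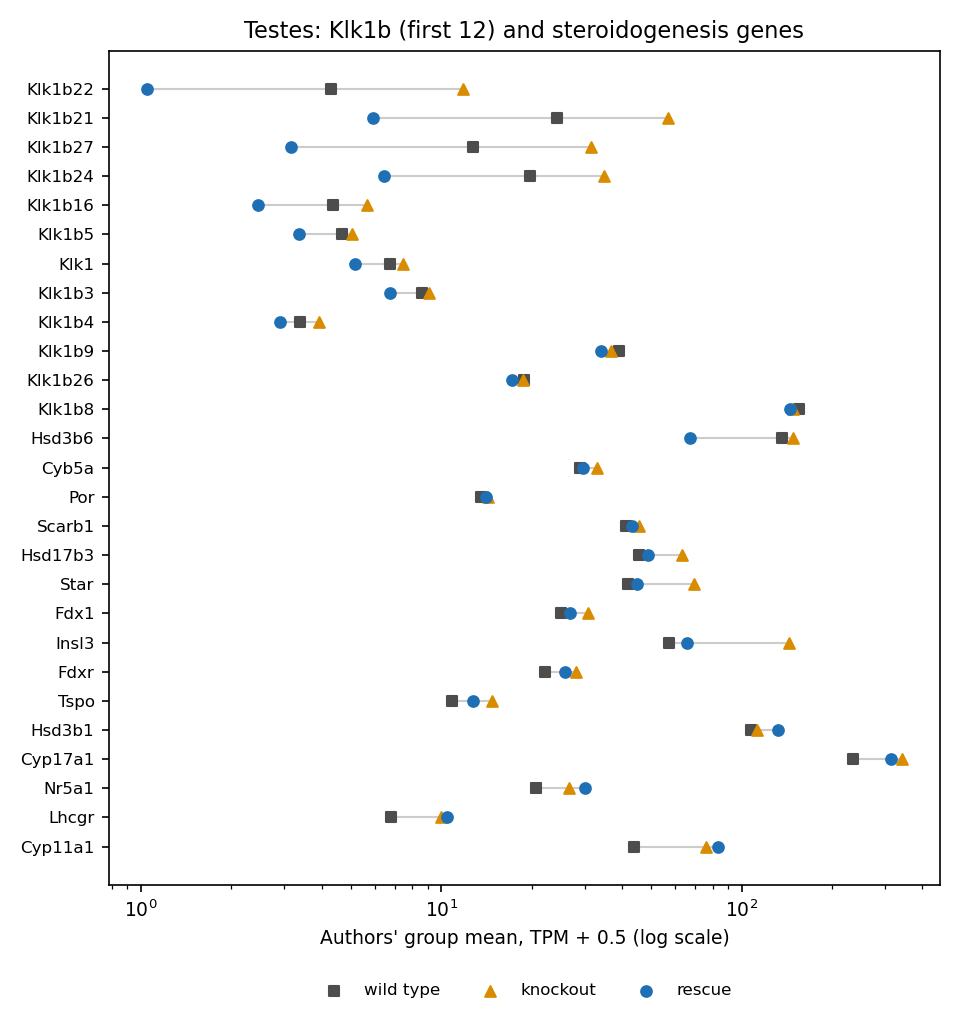
Group means of 12 Klk1b genes and 15 steroidogenesis genes are plotted on a log scale as TPM + 0.5, each block ordered by the log2 ratio of rescue over wild type, with squares for wild type, triangles for knockout and circles for rescue and no error bars. Klk1b22, Klk1b21, Klk1b27 and Klk1b24 show rescue on the left and knockout on the right of wild type, and in the second block Hsd3b6 alone has its rescue mean on the left.

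Sertoli cell genes were mostly above wild type. Of 20, all at 1 TPM, 18 were above wild type, against 59.9% of all genes, 0 were called higher once 0.5 TPM was added and 7 were higher by 1.5-fold, against 1.96% of all genes, with a median log2 ratio of 0.48. Amh, the anti-Müllerian hormone, was 2.21 TPM in wild type, 3.14 in knockout and 4.68 in rescue (0.93), and Fshr, the receptor for follicle-stimulating hormone, was 2.65, 3.90 and 5.33 TPM (0.89), and without the added 0.5 TPM their ratios were 2.12 and 2.01. The homeobox gene Rhox5 was 35.7, 48.7 and 61.0 TPM (0.77), and the tight junction gene Cldn11 was 94.2, 137.8 and 148.0 TPM (0.65). Gata1, Ctsl and Aard were the other 3. Clu, the most abundant, was 847.6, 808.9 and 817.8 TPM. For these 7 genes both mutant means lay above wild type.

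Germ cell lists moved less. Among spermatogonial genes 13 of 16 were above wild type, against 59.9% of all genes, with a median of 0.23, and 1 was called lower, against 2.31%: Gfra1, the receptor subunit for the stem cell factor GDNF, at 11.1 TPM in wild type, 3.84 in knockout and 4.003 in rescue (−1.37). Etv5, a transcription factor of the same cells, was 23.7, 15.2 and 16.01 TPM (−0.55). Gdnf itself, made by Sertoli cells, was 1.21, 1.32 and 1.19 TPM. The pluripotency-type factors Sall4 (1.53 and 2.22 TPM) and Lin28a (2.93 and 3.60) and the meiotic gate gene Stra8 (16.9 and 19.7) were on the higher side. Spermatocyte genes had a median of 0.12 with 19 of 21 above wild type, and piRNA pathway genes 0.17 with 14 of 15 above, against 59.9% of all genes. No gene of these 2 lists passed 1.5-fold.

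Late spermatid genes leaned the other way. All 15 elongating spermatid genes were below wild type, while 59.9% of all genes lay above it, but 0 of the 15 passed 1.5-fold and the lowest was at −0.19, with a median of −0.12 in rescue and −0.10 in knockout. Prm1, a protamine that packs sperm DNA and the most abundant gene in the table, was 14339 TPM in wild type, 13386 in knockout and 13033 in rescue. The protamine Prm2 was 12768 and 11685 TPM in wild type and rescue, and the transition protein Tnp1 was 10705 and 9942 TPM. Together the 15 genes summed to 66925 TPM in wild type and 61782 TPM in rescue. Acrosome genes had a median of 0.00 and flagellar genes 0.04, and no direction is given for these, since another scaling moves them across or onto 0. TPM are shares of one total, so the abundant late genes and the other lists are not independent of each other.

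The other somatic lists differed in direction. Macrophage genes were above wild type in 12 of 14, against 59.9% of all genes, with a median of 0.38, and 1 was higher by 1.5-fold, against 1.96%. This was the complement gene C1qa, at 13.6 TPM in wild type, 19.4 in knockout and 23.5 in rescue. Peritubular and smooth muscle genes had a median of 0.10 and endothelial genes −0.06 (−0.19 with a minimum of 5 TPM in either group), and none of either passed 1.5-fold. Of 5 erythroid genes at 1 TPM, 4 were lower by 1.5-fold, against 4.19% of all genes, with a list median of −0.75. These were the globins Hbb-bs (16.6, 9.18 and 9.66 TPM), Hba-a1 (6.36, 3.28 and 3.01), Hbb-bt and Hba-a2. The remaining erythroid gene at 1 TPM lay above wild type, at a log2 ratio of 0.38. The adrenal cortex list had a median of −0.10, which turned to 0.24 with a minimum of 5 TPM in either group, so no direction is given for it, and 0 of its genes passed 1.5-fold. Defining markers of the testis were present throughout: Cyp17a1 was 235.2 TPM in wild type and 314.8 in rescue, and the germ cell marker Uchl1 was 49.0 and 57.6.

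**Figure D5:**
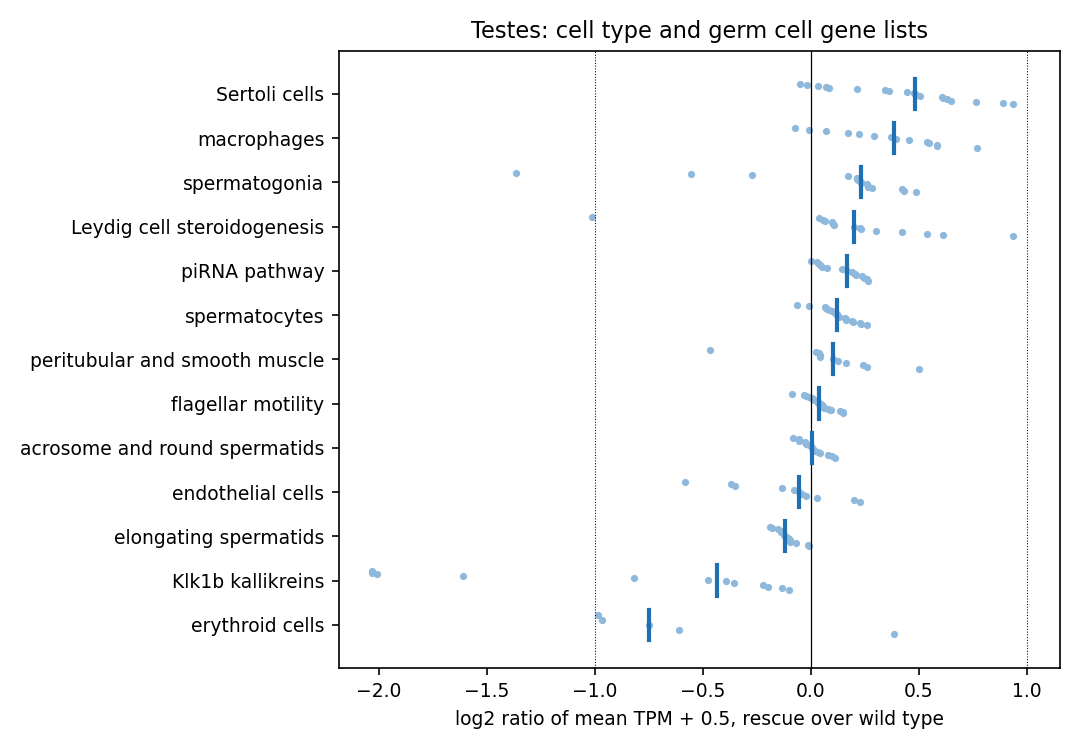
Each point is the log2 ratio of rescue over wild-type mean TPM + 0.5 for 1 gene at 1 TPM or more, in 13 lists ordered by median, and the bar is the list's median. Sertoli and macrophage lists lie to the right of 0, elongating spermatids just to its left, and the kallikrein and erythroid lists farther left, with Gfra1 the point near −1.4 among spermatogonia.

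The genes called higher were mostly small or rare transcripts. Of the 110, 44 were short RNA types (miRNA, snoRNA, snRNA, rRNA, misc_RNA and mitochondrial tRNA models), 15 were immunoglobulin genes and 30 were protein-coding. Short RNA types were called in both directions, 44 higher and 51 lower of 867, which is 5.07% and 5.88% against 0.491% and 2.31% of all genes. Of these, 35 of the 44 reached 1 TPM through rescue alone and 42 of the 51 through wild type alone, and so had to differ in that direction. The libraries were made from poly(A) RNA, and the reads behind these models are not known. The immunoglobulin group was chosen after the values were seen. There were 99 such genes in all and 35 reached 1 TPM, 13 of them through rescue alone, which had to lie above wild type. Among the 19 at 1 TPM in both groups, 2 were called higher, against 0.491% of all genes. Igkc, the constant region of the kappa light chain, was 2.11 TPM in wild type, 2.10 in knockout and 13.1 in rescue (2.38). Ighm, the heavy chain of IgM, was 3.11, 3.95 and 8.49 TPM (1.32). Of the variable segments, Igkv6-15 was listed at 0 in wild type and was 0.0596 TPM in knockout and 2.54 TPM in rescue. The heavy chains Ighg2b and Ighg2c were 1.41 and 1.48 TPM in rescue and below 0.3 TPM in both other means. In the other direction, 13 of the 35 were below wild type and 3 were lower by 1.5-fold, against 4.19% of all genes. These 3 were the variable segments Ighv11-2 (−0.97), Igkv3-10 (−0.81) and Ighv1-56 (−0.64). Ighv11-2 and Igkv3-10 reached 1 TPM through wild type alone and so had to lie below it. Immunoglobulin genes mark antibody-making B cells, and whether 1 library carried them cannot be told from a mean.

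Protein-coding genes called higher came from several functions, and the knockout mean is given beside each. Of those below, Lrg1, Ddr1, Cpe, Aqp8 and Shbg were named after their values were seen. Timp1, an inhibitor of matrix proteases, was 2.34 TPM in wild type, 18.3 in knockout and 15.1 in rescue (2.45). Tnfrsf12a, the receptor for the cytokine TWEAK, was 2.95, 12.1 and 11.5 TPM (1.79). Cryaa, a small heat shock protein of the lens, was 0.217, 2.06 and 4.23 TPM (2.72). A1cf, an RNA-binding cofactor of mRNA editing, was 4.22, 10.9 and 14.2 TPM (1.64). Mpeg1, a pore-forming protein of macrophages, was 12.9, 32.8 and 34.8 TPM (1.40). The chemokine Ccl8 (5.72, 20.2 and 14.8 TPM), the secreted glycoprotein Lrg1 (6.09, 23.4 and 15.2) and the collagen receptor Ddr1 (9.99, 22.6 and 23.4) followed. The more abundant ones were Cpe, a carboxypeptidase that trims prohormones, at 92.9, 189.2 and 190.4 TPM (1.03), and the water channel Aqp8, at 38.2, 77.1 and 79.3 TPM (1.04). Shbg, the androgen-binding protein of Sertoli cells, was 13.99, 24.8 and 29.0 TPM (1.02).

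Others among the 15 largest rises were rare transcripts. The pseudogene Rpl15-ps2 was 0.326, 0.386 and 3.75 TPM in wild type, knockout and rescue, the noncoding AC158388.1 was 0.131, 0.332 and 2.68 TPM, and the miRNA gene Mir6906 was listed at 0 in wild type and was 2.09 TPM in rescue. The variable segments Ighv1-64 and Ighv1-26 were 1.59 and 1.66 TPM in rescue. At 10 TPM or more, the rises also took in Aplp1, a relative of the amyloid precursor protein (10.2, 30.3 and 25.7 TPM), the cytochrome P450 Cyp2c55 (7.61, 14.2 and 19.8 TPM) and the snoRNA Snord71 (6.23, 9.59 and 16.5 TPM).

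A pair of small gene blocks, singled out after their values were seen, were higher together. In a cluster on chromosome 14, 6 genes reached 1 TPM, of which AC166344.1 and Gm8127 did so through rescue alone. Of the 6, 5 were called higher, against 0.491% of all genes, in a block picked for its values. The cluster had a sum of 27.3 TPM in wild type, 101.5 in knockout and 107.6 in rescue. The largest was 1700001F09Rik, at 18.9, 66.0 and 70.4 TPM, followed by AC166344.3 (2.60, 12.1 and 12.8), Gm8126 (2.86, 11.9 and 12.1) and Gm9597 (1.88, 8.53 and 8.61). The sequences of these genes were not compared. If they are alike, unique mapping can divide their reads. On the mitochondrial genome the adjacent genes mt-Tg, mt-Nd3 and mt-Tr were 2.83, 1.64 and 0.566 TPM in wild type, 11.6, 11.5 and 5.77 TPM in knockout, and 19.3, 10.2 and 5.41 TPM in rescue. Of these mt-Tr reached 1 TPM through rescue alone and so had to lie above wild type. They were the 3 called higher of 25 mitochondrial genes at 1 TPM, and 1 was called lower, against 0.491% and 2.31% of all genes. The 1 lower was mt-Ti, at 2.97 TPM in wild type, 1.19 in knockout and 0.655 in rescue. It reached 1 TPM through wild type alone and so had to lie below it. The mitochondrial list as a whole had a median of 0.22, with mt-Co1 at 6624 and 7620 TPM and mt-Cytb at 2565 and 3296 TPM. Only uniquely mapped reads were counted, and mt-Co2, mt-Atp6 and mt-Co3 were listed below 1 TPM in all 3 groups.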

How the data were processed

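RNA from testes was sequenced as poly(A) TruSeq libraries on a HiSeq, and the submitters' processing notes name CASAVA 1.8.2, STAR, featureCounts and DESeq2. The authors aligned reads to GRCm38 (mm10), counted uniquely mapped reads per GENCODE vM16 gene, and dropped genes in which no replicate reached 3 reads. The deposited values used here are the authors' group means in TPM of wild-type, knockout and rescue testes. The same table holds the authors' fold changes and p-values for knockout against wild type and rescue against knockout, which were not used.

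The log2 ratio was computed with a pseudocount of 0.5 TPM for genes at 1 TPM or more in wild type or rescue, and described with no test. The steps were tested on simulated means. Named genes were Tug1, its neighbours past 1.5-fold within 1 Mb, the 15 largest rises and falls, and the same at 10 TPM or more. They also took in up to 4 members per list, genes picked from the study, Nnt, and 3 genes on each side of the minimum. Others are said to be chosen after their values were seen or are members of lists. Lists and members were chosen with earlier results of these data known. Replicates are separate samples by their labels. Promoter windows came from RefSeq (GRCm38.p6). The tools were Python 3.11.15, pandas 2.3.3 and Biopython 1.88. Alternatives were other pseudocounts, minimums, folds, windows and scalings. The other tissues and the F1 hybrid testes are not analysed here.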

Additional observations from a re-analysis of the deposited data

How the results depend on the processing

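Under each alternative run Tug1 stayed past 2-fold lower and over all genes those called lower outnumbered those called higher. With the minimum, fold or pseudocount changed, the genes called higher numbered 193 (pseudocount 0.1), 62 (pseudocount 1), 33 (5 TPM in either group), 30 (protein-coding genes only, rescaled to one sum), 440 (1.5-fold) and 14 (4-fold), against 110. The genes called lower numbered 242 (5 TPM in either group), 939 (1.5-fold) and 235 (4-fold), against 517. A minimum of 5 TPM in rescue, chosen after seeing the data, gave 33 higher and 46 lower. In the window of 1 Mb the 3 genes called higher became 1 at 5 TPM in either group or in rescue, 1 among protein-coding genes and 10 at 1.5-fold, and the 0 lower became 1 at 1.5-fold and 1 in a window of 2 Mb. The moves at the other minimums, gene sets, folds and windows follow from the genes admitted or the fold itself, and those at the other pseudocounts from the added amount, which weighs most on low means. The median of the epididymal list ranged from −9.22 to −6.31 with the pseudocount. Of 33 list medians, those of acrosome genes and of nuclear oxidative phosphorylation genes changed sign when the median of all genes was set to 0. With 5 TPM in either group the medians of the adrenal cortex, glucocorticoid response and integrated stress response lists turned from −0.10, −0.02 and −0.03 to 0.24, 0.06 and 0.02, and the last was 0.01 with no minimum. No value for a single gene or list past 2-fold changed sign. No paired analysis was possible because only group means are used here. No replicate could be left out for the same reason.

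The limits are the absence of any spread, so that no difference can be set against replicate error, and of depth per sample. Library codes fall into 2 runs of numbers, with 3 of 4 wild-type and 1 of 3 rescue libraries in the lower run, and a mean cannot be split by them. The log2 ratios of genes near 0 TPM depend on the pseudocount. Of 279 single-gene ratios examined, 86 moved by more than 1.5-fold at a pseudocount of 0.1 and 56 at a pseudocount of 1.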

Other observations

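Of the ribosomal protein genes, the 78 on autosomes had a median log2 ratio of −0.02, while the 4 on the X chromosome, grouped after their values were seen, were all below wild type and 3 were lower by 1.5-fold, against 4.19% of all genes. Rpl10 was 91.5 TPM in wild type, 71.0 in knockout and 47.0 in rescue (−0.95), and Rps4x was 89.2, 73.5 and 48.3 TPM (−0.88). Rpl39 was 29.2 and 18.5 TPM and Rpl36a 23.3 and 16.1 TPM in wild type and rescue. The autosomal copy of Rpl10 that germ cells use, Rpl10l, was 410.6, 419.6 and 441.9 TPM. The 628 protein-coding genes on X had a median of 0.00 and those on autosomes 0.05. Epididymal and other somatic cells use these X-linked genes, and the epididymal part of the difference was not tested. Rpl3l, an isoform gene of striated muscle, was the 1 ribosomal gene called lower, at 6.98, 2.41 and 1.61 TPM.

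Of 13 antigen presentation genes at 1 TPM, 3 were higher and 1 was lower by 1.5-fold, against 1.96% and 4.19% of all genes. The class II genes Cd74 (27.1, 46.6 and 49.9 TPM), H2-Aa (11.3, 20.0 and 20.4) and H2-Eb1 (16.1, 25.4 and 26.2) were the higher ones, and B2m, the light chain of class I, was the lower one, at 219.6, 293.2 and 138.1 TPM. Interferon-stimulated genes had a median of 0.29 with 12 of 13 above wild type, against 59.9% of all genes. Serpina3n was 4.10, 13.9 and 7.18 TPM and Lcn2 219.2, 342.4 and 159.3 TPM.

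Other lists had few genes past 1.5-fold or 2-fold, beside 2.31% of all genes called lower, 4.19% lower and 1.96% higher by 1.5-fold. Egr2 was 9.77 TPM in wild type, 0.734 in knockout and 0.569 in rescue, the 1 called of 15 immediate early genes, whose median was 0.08, and reached 1 TPM through wild type alone. Bhlhe41 was 2.44, 0.827 and 0.606 TPM, the 1 called of 16 clock genes, whose median was 0.07, and also reached 1 TPM through wild type alone. In all 3 of the 16 were lower by 1.5-fold, the others being Bhlhe40 (6.997, 5.28 and 4.45 TPM) and Hlf (2.12, 1.58 and 1.16 TPM). Hspb1, a small heat shock protein, was 25.4, 40.9 and 45.0 TPM in a list with a median of 0.10. Sparc, a matrix protein of Sertoli and Leydig cells, was 199.9, 330.5 and 313.9 TPM, and the matrix list had a median of 0.20. Slc7a11 (2.83, 2.44 and 1.47 TPM) and the cholesterol synthesis gene Nsdhl (17.9 TPM in wild type and 10.5 in rescue) were the 2 past 1.5-fold in their lists. The other lists had medians of 0.15 for retinoid handling, −0.07 for glutathione transferases and −0.11 for cholesterol synthesis. Those of the integrated stress response (−0.03) and the glucocorticoid response (−0.02) both turned above 0 with a minimum of 5 TPM in either group. Acute phase and complement genes had 0.11, PGC-1 and mitochondrial biogenesis 0.14, nuclear oxidative phosphorylation 0.04 and ribosomal proteins −0.02. The list of genes picked from the study had 0.34.

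Of the genes picked from the study and outside the Tug1 region, Gm28181 was 10.8, 4.63 and 9.39 TPM and Aqp2 4.93, 13.2 and 6.48. Mrap was 4.83, 8.21 and 4.75 TPM, and Selenop 88.4, 131.0 and 85.9. The study reported such genes from these same samples, so the list is no independent evidence of a direction. It leaves out others that the study reports as reciprocally regulated, among them Klk1b21, Klk1b24 and Klk1b27. Nnt, a gene deleted in part in C57BL/6J, was 29.4, 28.1 and 29.2 TPM.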
